A study of Arabidopsis thaliana with 4 samples.

Results

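Peaks of MYC-tagged AtbZIP17 that the study assigned to the upstream sequences of *RCAR1* (*AT1G01360*), *AIRP2* (*AT5G01520*) and *ATHB-7* (*AT2G46680*), 3 genes of abscisic acid (ABA) signalling, were examined in 3 ChIP samples. The 3 genes were chosen by their place in the study's list of target genes, which pairs each gene with a peak of every replicate, and with their peak values already known. They are 3 of the 842 genes in the part of that list used here, and 11 of the 2432 peaks listed there belong to them, out of 13344 peaks called in all. The study's full list holds more genes, so ranks and shares among the 842 genes hold for that part only. All chromatin came from 13-day-old *Arabidopsis* seedlings that carried *35Spro::MYC-bZIP17*, had grown at 22 °C and were kept at 42 °C for 2 h. The 3 ChIP samples (replicates 1, 2 and 3) were precipitated with an anti-MYC antibody, and 1 input library, made with no antibody from seedlings of the same genotype and treatment, entered through the peak calling. The 35S promoter drives expression of the tagged protein in most tissues, so these samples do not show where or how much the native protein binds. None of the 4 libraries used here came from plants kept at 22 °C throughout or from plants without the tagged protein, so nothing here compares heat with no heat. Enrichment that does not depend on the tagged protein likewise cannot be told apart from binding. The labels do not say whether the replicates came from separate cultures, so the SD over the 3 may be technical.

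ABA is the hormone through which plants respond to drought and salt. In *Arabidopsis*, receptors of the RCAR/PYL family bind ABA and then inhibit the clade A PP2C phosphatases, which frees the SnRK2 kinases to phosphorylate bZIP factors of the ABF group. *RCAR1*, also called *PYL9*, encodes one of these receptors. *AIRP2* encodes a cytosolic RING-type E3 ubiquitin ligase that promotes ABA responses in germinating seeds. *ATHB-7* encodes a homeodomain-leucine zipper factor of class I that ABA and drought induce and that feeds back on the receptors and the phosphatases. AtbZIP17 itself is held in the membrane of the endoplasmic reticulum and is released by proteolysis under stress.

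For each peak, the deposited lists give the pileup, which counts the fragments that cover the summit, and the fold enrichment, which is the pileup relative to the local background estimated from the input. All 3 genes had peaks of all 3 replicates that overlapped one another, as did 788 of the 842 genes (93.6%), which were themselves listed for having a peak in every replicate. The fold enrichment of the strongest peak was highest at *AIRP2*, lower at *RCAR1* and lowest at *ATHB-7* in every replicate. These values did not overlap between the 3 genes. The genes were chosen with these values known, so the values are described and not tested. A fold enrichment of at least 3 in all 3 replicates was reached by the strongest peaks of *AIRP2* and *RCAR1* and not by that of *ATHB-7*. Among the 842 genes, 397 (47.1%) reached this limit in all replicates, and 53%, 60.2% and 60.6% reached it in replicates 1, 2 and 3. Overlapping peaks with a *q* value under 1e-05 in every replicate were found at all 3 genes and at 65.3% of the 842, and peaks with summits within 200 bp of one another at all 3 genes and at 76.2%. Nothing is read from these counts, since the genes were chosen with these values known.

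**Figure D1:**
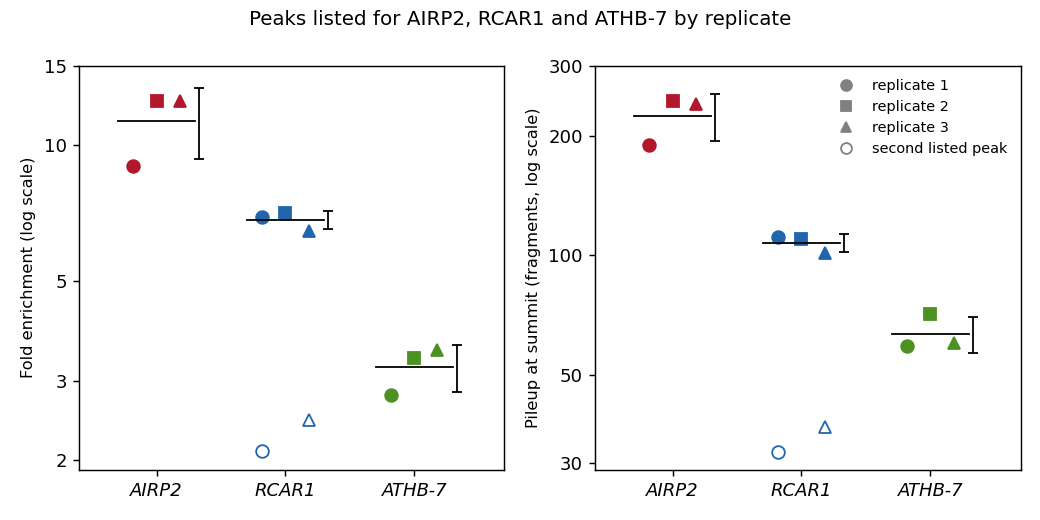
Fold enrichment (left) and pileup at the summit (right) of each peak listed for *AIRP2*, *RCAR1* and *ATHB-7*, on log axes. Filled symbols are the strongest peak of a replicate, open symbols the second listed peaks of *RCAR1*, and lines with bars the mean and SD of the strongest peaks (n = 3). The lowest *AIRP2* value, 8.98-fold, lies above the highest *RCAR1* value, 7.06-fold, and the lowest *RCAR1* value of a strongest peak, 6.46-fold, above the highest *ATHB-7* value, 3.51-fold.

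For the receptor gene *RCAR1*, the strongest peak lay on chromosome 1, and its fold enrichment in replicates 1, 2 and 3 was 6.92, 7.06 and 6.46. The mean was 6.81 ± 0.312 (SD, n = 3), and the spread between the replicates was small, with a coefficient of variation of 4.59%. Of the 1341 regions with peaks of all 3 replicates (shared regions hereafter), 10.7% had a lower coefficient, and the median was 11.1%. The pileup was 111, 110 and 101 fragments, a mean of 107 ± 5.51 (SD, n = 3). By fold enrichment the peak ranked 158 among the 4523 peaks of replicate 1, 196 among the 4491 of replicate 2 and 227 among the 4330 of replicate 3, and by pileup it ranked 192, 235 and 254. Its −log10 *q* value was 53.3, 53.7 and 45.9.

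In the coordinates of the deposited lists (TAIR10), replicate 1 had the *RCAR1* peak at chr1:139656-141357 (1702 bp), replicate 2 at chr1:138722-142301 (3580 bp) and replicate 3 at chr1:139502-141351 (1850 bp). The 3 peaks had 1696 bp in common, and the summits at 140462, 140486 and 140401 lay within 85 bp of one another. A second, weak peak was listed for *RCAR1* in replicates 1 and 3. Replicate 1 had it at chr1:141780-142201, where the fold enrichment was 2.09 and the pileup 32 fragments. Replicate 3 had it at chr1:141867-142202, where the fold enrichment was 2.46 and the pileup 37 fragments. These values were 30.2% and 38.1% of the fold enrichment at the strongest peak of the same replicate. Both weak peaks overlapped by 335 bp, while their summits, at 141867 and 142155, were 288 bp apart. Neither had a *q* value under 1e-05, since their −log10 *q* values were 2.54 and 4.49.

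In replicate 2 no separate second peak was called at *RCAR1*, and the single wide peak covered all of the sequence that both weak peaks span. *RCAR1* therefore had 2, 1 and 2 peaks in the 3 replicates, and it took up 4 lines of the target list, 1 for each combination of peaks. A single line was given to 553 of the 842 genes (65.7%), *AIRP2* and *ATHB-7* among them, while 79 genes (9.38%) had 4 lines or more and 20 genes had 2, 1 and 2 peaks.

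The E3 ligase gene *AIRP2* had the highest fold enrichment of the 3 genes. Its only peak in the lines used here, on chromosome 5, had fold enrichments of 8.98, 12.5 and 12.5 in replicates 1, 2 and 3. These values average 11.3 ± 2.04 (SD, n = 3). The pileup was 189, 244 and 240 fragments, a mean of 224 ± 30.7 (SD, n = 3). The peak ranked 95, 73 and 72 by fold enrichment and 77, 68 and 64 by pileup, so it was among the top 2.10%, 1.63% and 1.66% of the lists by fold enrichment. Its −log10 *q* value was 109, 174 and 171.

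Replicate 1 was the low one at *AIRP2*, where its fold enrichment was 0.718 times the mean of replicates 2 and 3. At *RCAR1* this ratio was 1.02, and at *ATHB-7* it was 0.809. Over the shared regions the median ratio was 0.915, and 5.07% of them had a lower ratio than *AIRP2*. Over the 100 shared regions with the highest mean fold enrichment the median ratio was 0.837, it ran from 0.695 to 1.12, and 4 of the 100 had a lower ratio than *AIRP2*. Without replicate 1, the mean at *AIRP2* was 12.5.

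The summits at *AIRP2*, at 206221, 206233 and 206233, lay within 12 bp of one another, and 2.91% of the shared regions had summits closer together. The peak itself varied more in width. Replicate 1 had it at chr5:205491-207365 (1875 bp), replicate 2 at chr5:204746-209613 (4868 bp) and replicate 3 at chr5:204265-207782 (3518 bp), so that the widest call was 2.60 times the narrowest and the 1875 bp of replicate 1 lay inside both others. The call of replicate 2 ranked 23 by width among the 4491 peaks of that list.

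Towards higher coordinates from the *AIRP2* summit, a further peak was called in replicates 1 and 3, which is not listed for any gene in the lines used here. Replicate 1 had it at chr5:207915-209198, where the summit was at 208783, the fold enrichment 3.78 and the pileup 65 fragments. Replicate 3 had it at chr5:208144-209487, where the summit was at 208821, the fold enrichment 3.18 and the pileup 50 fragments. Their summits were 38 bp apart and lay 2562 bp and 2588 bp from the *AIRP2* summit of the same replicate. In replicate 2 the wide *AIRP2* peak covered the whole of the first and of the second, and no separate peak was called. By fold enrichment these unlisted peaks ranked 412 in replicate 1 and 668 in replicate 3, and the listed *ATHB-7* peak of the same replicate had a fold enrichment of 2.78 in replicate 1, below the unlisted peak, and of 3.51 in replicate 3, above it. The next gene in that direction in the RefSeq order is *LHCB4.1* (*AT5G01530*), which encodes a chlorophyll-binding protein of photosystem II and does not occur in the lines used here.

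For the homeobox gene *ATHB-7*, the listed peak on chromosome 2 had fold enrichments of 2.78, 3.37 and 3.51 in replicates 1, 2 and 3, which average 3.22 ± 0.386 (SD, n = 3). The pileup was 59, 71 and 60 fragments, a mean of 63.3 ± 6.66 (SD, n = 3). The −log10 *q* value was 9.41, 15.6 and 14.0, so a *q* value limit of 1e-05 was passed in every replicate although the fold enrichment stayed under 3 in replicate 1. The peak stood higher by pileup, with ranks of 534, 445 and 532, than by fold enrichment, with ranks of 811, 624 and 571. The ratio of pileup to fold enrichment, a rough measure of the local background, averaged 19.8 ± 2.34 fragments (SD, n = 3) at *ATHB-7*, 19.9 ± 0.995 at *AIRP2* and 15.8 ± 0.252 at *RCAR1*. Over the shared regions its median was 16.6 fragments, and it was lower than at *ATHB-7* in 87.3%, and lower than at *AIRP2* in 88.3% of them, while it was lower than at *RCAR1* in 33.04%.

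Replicate 1 had the *ATHB-7* peak at chr2:19167486-19169786 (2301 bp), replicate 2 at chr2:19168031-19169350 (1320 bp) and replicate 3 at chr2:19168138-19169547 (1410 bp), with 1213 bp in common. The summits lay at 19168941, 19168865 and 19168749, and 71.1% of the shared regions had summits closer together than these. Here replicate 1, with the lowest fold enrichment, had the widest call, whereas at *AIRP2* and *RCAR1* the widest call was that of replicate 2. A flanking peak that is not listed for a gene in the lines used here was called in replicate 2 at chr2:19169657-19170036 and in replicate 3 at chr2:19169845-19170265. Its fold enrichments were 2.53 and 2.77, and both calls overlapped by 192 bp. The wide call of replicate 1 reached 130 bp into that of replicate 2 and ended before that of replicate 3.

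*ATHB-7* is the one gene of the 3 for which the study's primer list holds primers. The pair for ChIP-qPCR at its promoter is shown because it is the sequence with which binding at this gene was assayed by a second method. It is given as in the study's primer list, in lower case throughout because no part of it is singled out, and its place within the peak was not determined here.
ChIP-qATHB7-F: tgcgtaagcaaatagctgga
ChIP-qATHB7-R: tgtgtgacgggtgtttttgt

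**Figure D2:**
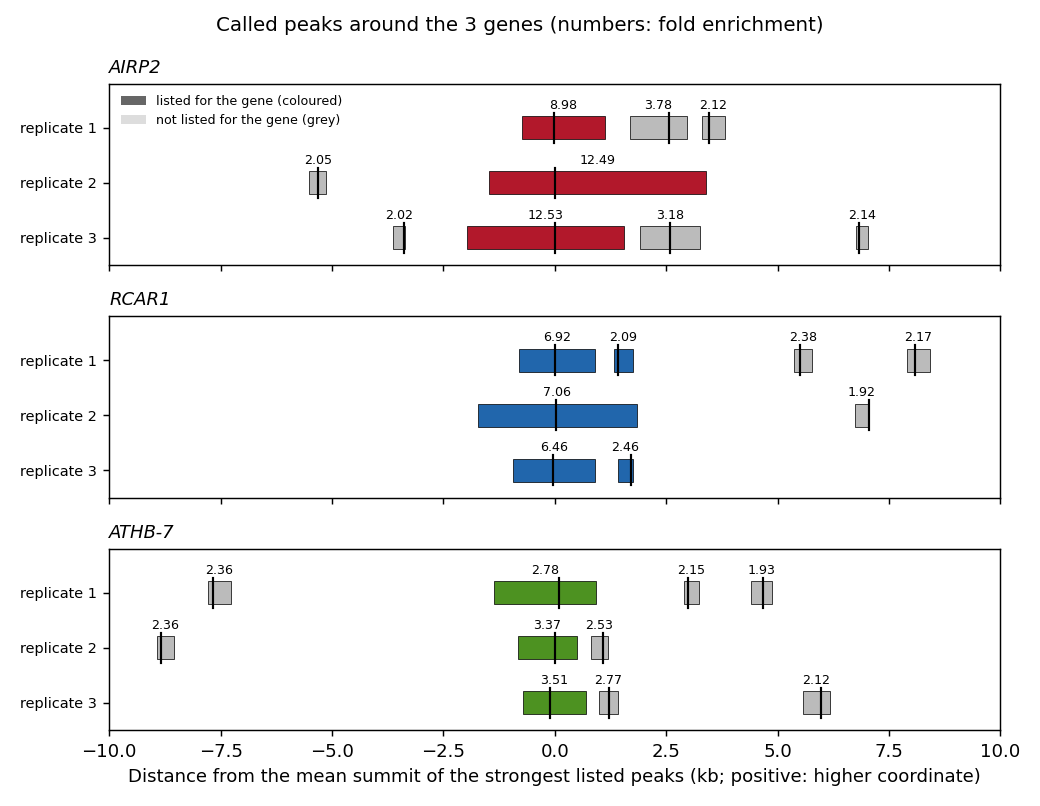
All peaks with a summit within 10 kb of the mean summit of each gene, by replicate, with the distance from that mean summit in kb on the horizontal axis (higher coordinates to the right). Coloured bars are peaks listed for the gene, grey bars other called peaks, black ticks the summits and numbers the fold enrichment. In replicate 2 the wide peaks at *AIRP2* and *RCAR1* cover sequence that was called as separate peaks in replicates 1 and 3.

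Other called peaks were counted within 10 kb of the mean summits. There were 6 unlisted peaks around *AIRP2*, 3 around *RCAR1* and 7 around *ATHB-7*, summed over the replicates. Their fold enrichment ran from 2.02 to 3.78 around *AIRP2*, from 1.92 to 2.38 around *RCAR1* and from 1.93 to 2.77 around *ATHB-7*. A *q* value under 1e-05 was reached by 2 of these peaks around *AIRP2*, by 1 around *ATHB-7* and by 0 around *RCAR1*. In the lines used here, none of the 16 unlisted peaks is listed for another gene, and none of the 11 listed peaks is listed for a second gene. The nearest genes on each side in the RefSeq order are *RUS5* and *LHCB4.1* for *AIRP2*, *AT1G01355* and *HTR12*, which encodes the centromeric histone H3, for *RCAR1*, and *AT2G46670* and the microRNA gene *MIR166a* for *ATHB-7*. None of these 6 neighbours occurs in the lines used here.

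The 3 genes were next set side by side within each replicate, by their strongest peaks. The fold enrichment at *AIRP2* was 1.30, 1.77 and 1.94 times that at *RCAR1* in replicates 1, 2 and 3, a mean of 1.67 ± 0.332 (SD, n = 3). It was 3.23, 3.71 and 3.57 times that at *ATHB-7*, a mean of 3.50 ± 0.247 (SD, n = 3). The fold enrichment at *RCAR1* was 2.48, 2.09 and 1.84 times that at *ATHB-7*, a mean of 2.14 ± 0.325 (SD, n = 3). With pileup in place of fold enrichment, the ratio of *AIRP2* to *RCAR1* was 2.10 ± 0.352, that of *AIRP2* to *ATHB-7* was 3.55 ± 0.410 and that of *RCAR1* to *ATHB-7* was 1.70 ± 0.167 (SD, n = 3 each). The order of the genes was the same with both measures in all 3 replicates.

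Among the 1341 shared regions, *AIRP2* ranked 76, *RCAR1* 193 and *ATHB-7* 623 by mean fold enrichment, against a median of 3.04 over these regions. Among the 842 listed genes the ranks were 61, 155 and 450, against a median of 3.34, so that *AIRP2* lay above 92.8%, *RCAR1* above 81.6% and *ATHB-7* above 46.6% of the genes. Mean peak width followed the same order, but the widths in replicate 1 did not. In that replicate the call was 2301 bp at *ATHB-7*, 1875 bp at *AIRP2* and 1702 bp at *RCAR1*. The mean width was 3420 ± 1499 bp at *AIRP2*, 2377 ± 1044 bp at *RCAR1* and 1677 ± 542 bp at *ATHB-7* (SD, n = 3 each), differences that are smaller than the SD at *AIRP2* between *AIRP2* and *RCAR1* and smaller than the SD at *RCAR1* between *RCAR1* and *ATHB-7*. All 3 were wider than the median of 934 bp over the shared regions.

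**Figure D3:**
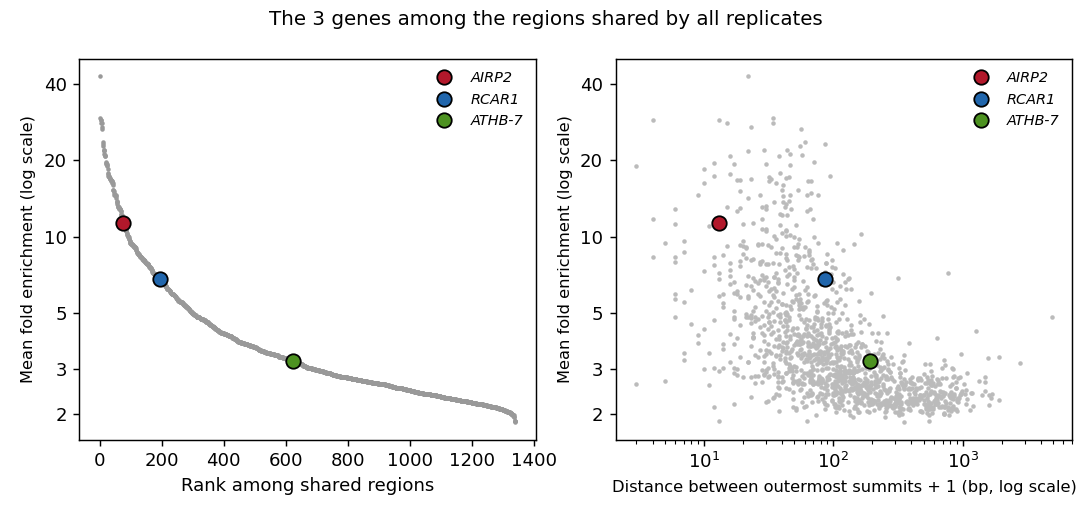
Mean fold enrichment of the 1341 shared regions (grey) on a log axis, against rank (left) and against the distance between the outermost summits of the 3 replicates plus 1 bp (right, log axis), with *AIRP2*, *RCAR1* and *ATHB-7* in colour. *AIRP2* sits among the strong regions with close summits, at rank 76 and 12 bp, and *ATHB-7* near the middle, at rank 623 and 192 bp.

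The fold enrichments in the 3 replicates were compared with those of the other listed genes by the distance between their log2 values. This distance reflects the level of enrichment and not only its pattern over the replicates, and the likeness rests on 3 values. The genes most like *AIRP2* were *DJ1B* (*AT1G53280*), at a distance of 0.20, and *BIP3* (*AT1G09080*), which encodes a chaperone of the endoplasmic reticulum, at 0.25. Those most like *RCAR1* were *CLA1* (*AT4G15560*) and *AT2G03040*, at 0.08 and 0.14, and those most like *ATHB-7* were *UBP1B* (*AT1G17370*) and *YSL6* (*AT3G27020*), at 0.05 and 0.08. None of these 6 genes shares a strongest peak with the gene that it resembles.

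To place the 3 genes in their pathway, a list of 55 genes of ABA perception, signalling, synthesis and breakdown was used. The list was drawn up with earlier results of these data known, and all 55 loci were found in RefSeq. Besides the 3 genes, 4 others of the list, *ABF3*, *ATHB-12*, *ABI1* and *ABI2*, occur in the lines of the target list used here, which makes 7 of 55. The other 48 genes were not analysed here, because only part of the target list was used, and nothing follows for them. By role, the lines held 1 of 9 RING-type E3 ligases, 1 of 14 receptors, 2 of 4 class I homeodomain-leucine zipper factors, 2 of 9 clade A phosphatases, 1 of 7 further transcription factors and 0 of 3 SnRK2 kinases, 5 synthesis genes and 4 breakdown genes. The lines used here hold 842 genes in all, beside 27562 protein-coding genes in RefSeq. The 3 genes were chosen from these lines, so nothing is read from these counts. The median of the mean fold enrichment over the 7 genes was 3.83, beside 3.34 over all 842 genes, and 4 of the 7 lay above 3.34. Without the 3 genes, whose values were known when they were chosen, the median over the 4 others was 3.44, and 2 of the 4 lay above 3.34.

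*ABF3* (*AT4G34000*), which encodes a bZIP factor that the SnRK2 kinases activate, had fold enrichments of 7.95, 8.78 and 11.02, between *AIRP2* and *RCAR1* by its mean of 9.25 ± 1.59 (SD, n = 3). *AIRP2* was higher than *ABF3* in all 3 replicates, although the ranges of both genes overlapped, and every *RCAR1* value was below every *ABF3* value. *ATHB-12* (*AT3G61890*), the closest relative of *ATHB-7*, had 3.52, 4.45 and 3.52, a mean of 3.83 ± 0.533 (SD, n = 3), and a single peak on chromosome 3 with summits within 57 bp. *ATHB-7* was lower than *ATHB-12* in all 3 replicates, with 3.51 at *ATHB-7* beside 3.52 at *ATHB-12* in replicate 3.

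*ABI1* (*AT4G26080*), a phosphatase that the ABA-bound receptors inhibit, had fold enrichments of 3.71, 2.65 and 2.79, a mean of 3.05 ± 0.576 (SD, n = 3), and its values overlapped those of *ATHB-7*. *ABI2* (*AT5G57050*), a close relative of *ABI1*, had the lowest mean of the 7, with 2.33, 2.16 and 2.39. *ABI2* had 2 peaks in each replicate and 8 lines of the list, and its strongest peaks in the 3 replicates were not the same one, with summits up to 871 bp apart. At the other 6 genes the strongest peaks of the 3 replicates overlapped.

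**Figure D4:**
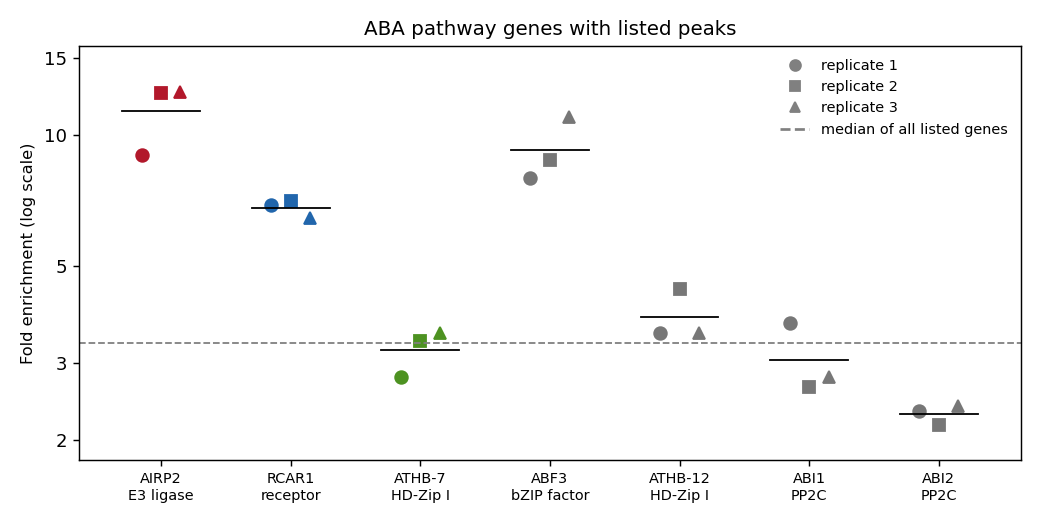
Fold enrichment of the strongest listed peak in each replicate on a log axis for the 7 ABA pathway genes of the lines used here, with their means as lines and the median of all 842 listed genes, 3.34, as a dashed line. *AIRP2*, *ABF3* and *RCAR1* are at or above 6.46-fold in every replicate, and *ATHB-7*, *ATHB-12*, *ABI1* and *ABI2* between 2.16 and 4.45.

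The study also gives a list of genes whose RNA went up with heat in wild-type flowers but not in *bzip17* mutant flowers. *AIRP2* is on that flower list, and *RCAR1* and *ATHB-7* are not. Absence from the list does not show that the RNA of a gene is independent of AtbZIP17 in flowers. For *ATHB-7*, the paper's own RT-qPCR found a significant rise with heat in wild-type flowers and no significant change in *bzip17* flowers. Of the 55 pathway genes, 2 (3.64%) are on the flower list, against 4.78% of the protein-coding genes in RefSeq. They are *AIRP2* and *NCED3* (*AT3G14440*), the key enzyme of ABA synthesis, and *NCED3* does not occur in the lines of the target list used here. The members and the pathway list were chosen with earlier results of these data known, so nothing is read from this share. The flower list rests on RNA of flowers, whereas the peaks were measured in seedlings.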

How the data were processed

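The deposited lists hold the peaks of 3 anti-MYC ChIP samples. The authors trimmed reads with Skewer, discarded those under 50 bp, kept unique Bowtie alignments, removed duplicates and called peaks with MACS in each sample against the input at *P* under 0.001, without pooling. The submitters' processing notes name the build TAIR10, and tool versions are not given in the sources used here. The pileup is a signal as deposited by the authors, a number of fragments at the summit. The fold enrichment is a deposited ratio of pileup to the local background. The lists also hold the authors' −log10 *P* and *q* values. Read totals are unknown, so no counting interval was computed, and a region without a call can lie just under the limit. Repeated sequence can lose pileup through the unique mapping, and very deep coverage through the removal of duplicates.

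Peaks were joined to genes by peak name in 1389 lines of the study's target list, each for a window of 2 kb upstream. Only names were taken from that list, and the values came from the deposited lists. The strongest peak of a gene is the one with the highest fold enrichment. Regions were merged at an overlap of at least 1 bp, and this step was checked on simulated lists. The members and gene lists were chosen with earlier results of these data known, so no test was run. Genes named are the 3 members, pathway genes in the lines used, neighbours of the members, and the 2 genes most like each member. *NCED3* was named after its place on the flower list was seen. RefSeq (TAIR10.1) gave symbols and gene order only. With no genome sequence or gene strand used here, motifs and distances to gene starts were not analysed. Python 3.11.15, pandas 2.3.3, NumPy 2.4.6 and matplotlib 3.10.9 were used.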

Additional observations from a re-analysis of the deposited data

How the results depend on the processing

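Leaving out each replicate in turn gave mean fold enrichments from 10.7 to 12.5 at *AIRP2*, from 6.69 to 6.99 at *RCAR1* and from 3.08 to 3.44 at *ATHB-7*, and ratios from 1.53 to 1.86 for *AIRP2* to *RCAR1*, from 3.40 to 3.64 for *AIRP2* to *ATHB-7* and from 1.97 to 2.29 for *RCAR1* to *ATHB-7*. The number of the 3 genes with overlapping peaks stayed at 3 for every pair of replicates. With the mean of all listed peaks, *RCAR1* had 5.34 in place of 6.81, because its weak second peaks enter. With pileup, the ratio of *AIRP2* to *RCAR1* became 2.10 and that of *RCAR1* to *ATHB-7* became 1.70. With a reciprocal overlap of 50%, 1 of the 3 genes was left, *ATHB-7*, beside 59.1% of the 842 listed genes, since wide and narrow calls cannot overlap by that share at *AIRP2* and *RCAR1*. Requiring a fold enrichment of 3 or more left 2 of the 3 genes and 2 of the 4 other pathway genes, *ABF3* and *ATHB-12*. A *q* value under 1e-05 left 3 of the 3 and 3 of the 4, beside 65.7% of the 842 without regard to overlap, and summits within 200 bp left 3 of the 3. Of 33 alternative values in all, 28 stayed within 1 SD or within 1.5 times a count. Many of these could not have moved, so the tally does not measure robustness. Leaving out 1 of 3 replicates cannot shift a mean by 1 SD, and peaks that overlap in all 3 replicates overlap in every pair. The mean of all listed peaks is unchanged by construction at *AIRP2* and *ATHB-7*, which have 1 listed peak per replicate.

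Upstream windows of 1 or 3 kb, a summit required inside the upstream window, and pathway genes with a replicate left out were not run, since no gene starts were used and the list needs all 3 replicates. No pairing of samples between groups was possible because all ChIP samples belong to 1 group. Genes were compared within each replicate by ratios, which were not tested because the genes were chosen with their values known.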

Other observations

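The peaks beyond *AIRP2* that no gene of the lines used here takes up are the strongest unlisted ones in the 3 neighbourhoods. Their −log10 *q* values were 16.8 in replicate 1 and 10.03 in replicate 3, and those of the listed *ATHB-7* peak were 9.41 and 14.0 in the same replicates. A further, weaker call followed in replicate 1, at chr5:209526-210056 with a fold enrichment of 2.12, and it overlapped the end of the wide *AIRP2* call of replicate 2 by 88 bp. Merged by overlap, the *AIRP2* region held 3, 1 and 2 peaks in replicates 1, 2 and 3 and spanned 5792 bp, the *RCAR1* region 3580 bp and the *ATHB-7* region, with 1, 2 and 2 peaks, 2780 bp. Whether the wide calls of replicate 2 hold more than 1 binding site was not tested.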
